A study of Mus musculus with 2 samples.

Results

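Cytosolic ribosomal protein genes encode the proteins of the small and large subunits of the ribosome that translates messenger RNA in the cytosol. They were examined for Nanog binding in mouse embryonic stem cells (ESCs). Members were the protein_coding genes of GENCODE vM21 whose symbol starts with Rpl or Rps and a digit, together with Rplp0, Rplp1, Rplp2 and Rpsa, without Rps6k kinase genes and without symbols ending in -ps and a number. The rule found 86 members among the 21938 protein_coding genes of the autosomes and sex chromosomes. Of the members, 77 are canonical ribosomal proteins: 31 of the small subunit, 43 of the large subunit outside its stalk, and the 3 stalk proteins. The other 9 are Rpl3l, Rpl7l1, Rpl10l, Rpl22l1, Rpl36al, Rpl39l, Rps27l and Rps27rt, which are paralogues or retrogenes, and Rps19bp1, which is a binding partner of Rps19 and not a ribosomal protein, although its symbol meets the rule.

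The data come from 1 immunoprecipitation of Bruce-4 ESCs, a mouse line grown in serum with LIF, with an antibody to the pluripotency factor Nanog. The series also holds 1 input sample of the same cells without antibody, which was not analysed here. The peak list has 8735 distinct intervals on chromosomes 1 to 19 and X and gives positions only. The strength of a peak and the read depth behind it are unknown, no value has a replicate error, and no p-value was computed. Where a share is given with an interval, it is the 95% interval (exact, Clopper-Pearson), which reflects counting error alone and takes genes or peaks as independent. Shares of promoters with a sequence feature and of genes with a small nucleolar RNA gene have no interval.

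Ribosomal protein genes are among the most highly transcribed genes of dividing cells, and their products are needed in near equal amounts. Their promoters are active in almost every cell type and commonly carry sites for ETS-family factors, Sp1 and YY1 and a pyrimidine-rich start. Nanog is known mainly for binding enhancers together with Oct4 and Sox2 in pluripotent cells. The comparison therefore asked whether constitutively active promoters appear in the Nanog peak list as often as protein-coding genes in general.

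Of the 86 members, 2 had a Nanog peak centred within 2.5 kb of the transcription start site (TSS): Rps21, a small-subunit protein, and Rplp0, which anchors the ribosomal stalk. Rps19, a small-subunit protein mutated in Diamond-Blackfan anaemia, was the only further member within 5 kb. The DNA under these peaks, and under the peak upstream of Rpl27 just beyond 5 kb, is shown because it holds different letters at the gene start and upstream of it. Rps19 and Rpl27 were chosen for display after their values were seen. All sequences are from the plus strand of GRCm38 (mm10), on which all of these genes are transcribed. Capitals mark matches on either strand to ETS (CCGGAAG), YY1 (AAGATGGC), Sp1 (GGGCGG), the CCAAT box (CCAAT), the pyrimidine motif (CTTTCC), the Nanog core (CCATTA), Sox (CCATTGT or CCTTTGT), Klf (GCCACACCC, GCCACGCCC, GCCCCACCC or GCCCCGCCC) and Esrrb (TCAAGGTCA). The first 2 sequences run from the start of the peak to base 20 of the gene, and the others are the central 300 bases of the peak.
Rps21, chr2:180257204-180257396: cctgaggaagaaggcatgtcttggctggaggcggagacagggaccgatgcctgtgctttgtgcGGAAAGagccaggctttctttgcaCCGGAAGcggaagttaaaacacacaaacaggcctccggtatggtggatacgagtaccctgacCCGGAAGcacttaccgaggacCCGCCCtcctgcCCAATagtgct
Rplp0, chr5:115559224-115559486: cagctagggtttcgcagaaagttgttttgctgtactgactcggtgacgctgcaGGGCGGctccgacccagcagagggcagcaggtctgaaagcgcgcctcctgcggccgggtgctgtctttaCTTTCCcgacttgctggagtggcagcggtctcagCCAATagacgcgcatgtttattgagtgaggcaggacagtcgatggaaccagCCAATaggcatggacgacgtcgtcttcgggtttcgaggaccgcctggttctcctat
Rps19, chr7:24879662-24879961: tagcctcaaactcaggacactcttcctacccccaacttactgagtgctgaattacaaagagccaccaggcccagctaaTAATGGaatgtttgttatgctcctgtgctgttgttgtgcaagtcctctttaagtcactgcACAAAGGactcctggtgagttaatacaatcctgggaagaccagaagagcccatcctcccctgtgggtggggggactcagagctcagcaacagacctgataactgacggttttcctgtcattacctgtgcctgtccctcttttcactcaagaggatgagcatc
Rpl27, chr11:101436970-101437269: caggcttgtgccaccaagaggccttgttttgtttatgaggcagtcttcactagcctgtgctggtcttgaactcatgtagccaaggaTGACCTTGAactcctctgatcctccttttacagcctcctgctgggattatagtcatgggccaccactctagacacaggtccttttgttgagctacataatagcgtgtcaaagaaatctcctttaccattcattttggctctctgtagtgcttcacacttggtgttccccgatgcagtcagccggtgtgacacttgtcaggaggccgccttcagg

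Rps21 (ENSMUSG00000039001.12, chromosome 2, 180257377 to 180258445, plus strand) had a peak from 180257204 to 180257512, 309 bp wide, that covered the TSS and was centred 19 bp upstream of it. Its sequence holds 2 copies of the ETS motif, which start at positions -86 and -24 relative to the TSS, and an Sp1 match across the TSS. Rplp0 (ENSMUSG00000067274.10, chromosome 5, 115559467 to 115563727, plus strand) had a peak from 115559224 to 115559573, 350 bp wide, which covered the TSS from a centre 69 bp upstream. There, 2 CCAAT boxes start at positions -87 and -36 and an Sp1 match starts at position -190. Neither whole peak held the Nanog core, Sox, Oct octamer (ATGCAAAT), Klf, Esrrb or Myc E-box (CACGTG) letters. GC content was 62.5% in the Rps21 peak and 60.0% in the Rplp0 peak, against a median of 47.7% over all peaks. In both cases the member had the nearest TSS of any annotated gene.

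The peaks upstream of Rps19 and Rpl27 had another composition. Rps19 (ENSMUSG00000040952.16, chromosome 7, 24884371 to 24889806, plus strand) had an intergenic peak from 24879653 to 24879970, 318 bp wide, centred 4560 bp upstream of its TSS. It held the Nanog core and a Sox match, with a GC content of 49.1%. Rpl27 (ENSMUSG00000063316.13, chromosome 11, 101442298 to 101445529, plus strand), a large-subunit protein, had an intergenic peak from 101436914 to 101437324, 411 bp wide and centred 5179 bp upstream. This one held the Esrrb letters, which belong to an orphan nuclear receptor of the pluripotency network, and had 50.6% GC. By width, these 4 peaks ranked between 1818 and 4722 among the 8735, so none was among the widest.

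At the promoter, members and protein-coding genes in general could not be told apart. Within 2.5 kb of the TSS it was 2 of 86 (2.33%, interval 0.283 to 8.15), against 829 of 21938 protein-coding genes (3.78%). Within 5 kb it was 3 of 86 (3.49%, interval 0.725 to 9.86), against 1360 genes (6.2%). Both background shares lie inside the members' intervals, so no difference was detected in either direction with 86 genes. The intervals end at 8.15% within 2.5 kb and 9.86% within 5 kb, and smaller differences could have been missed. The remaining 83 members had no listed peak within 5 kb, and a site below the threshold of the peak call cannot be told from an unbound one.

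At 50 kb the order was the other way round. Of the 86 members, 41 (47.7%, interval 36.8 to 58.7) had a peak within 50 kb, against 7650 protein-coding genes (34.9%), a background share just below the interval. This depended on the genes, peaks and starts that were counted. The background stayed below the members' interval on the autosomes alone (50.0%, interval 38.7 to 61.3, against 36.1%). It did so too with RefSeq starts, chosen after the data were seen (35 of 66 members, 53.0%, interval 40.3 to 65.4, against 35.7%). Distance from the peak edge and merged peaks left both shares at 47.7% and 34.9%. The settings that follow brought the background inside an interval of the members. Among the 77 canonical ribosomal proteins the share was 34 (44.2%, interval 32.8 to 55.9), an interval that includes the background. With peaks at or above the median width of 319 bp alone, 17 members (19.8%) had a peak within 50 kb, against 20.1% of all protein-coding genes, so that the excess was no longer present. With the TSS of any transcript the background rose to 39.0% while the members stayed at 47.7%. Among all genes with a CpG-rich promoter the background was 42.3%. In both cases it lay inside the interval of all 86 members, 36.8 to 58.7. The CpG-rich members alone had 22 of 41 (53.7%, interval 37.4 to 69.3), an interval that also includes 42.3%.

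**Figure D1:**
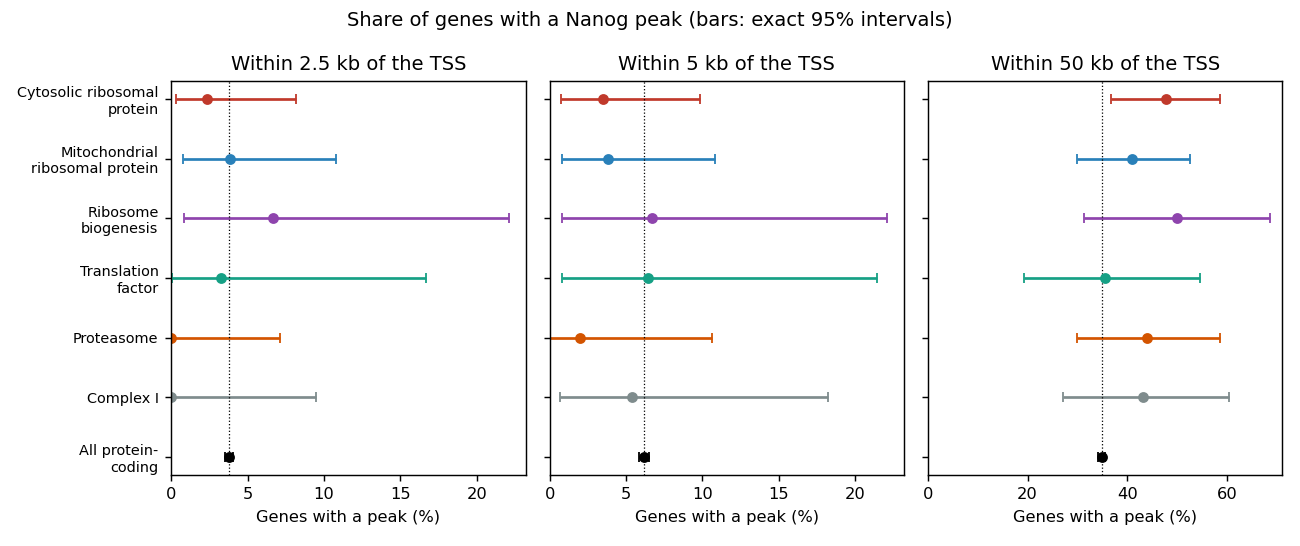
Share of genes with a Nanog peak centre within 2.5, 5 and 50 kb of the TSS (horizontal axes, percent; scales differ between panels), for 7 gene groups; points are shares, bars are exact 95% intervals and the dotted line is the share of all protein-coding genes. Cytosolic ribosomal protein genes lie at 2.33% and 3.49% in the narrower windows, below the dotted lines but with intervals that include them, and at 47.7% within 50 kb, to the right of the dotted line.

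The distance to the closest peak was also compared. Its median over the 86 members was 59.5 kb (interval from order statistics 37.5 to 91.6), with quartiles of 22.3 and 116 kb. Over the 21755 protein-coding genes on a chromosome with peaks the median was 85.3 kb, inside the members' interval, with quartiles of 30.7 and 203 kb. The curves of cumulative distance crossed: members were behind protein-coding genes in general near 5 kb and ahead of them at 50 kb. With RefSeq starts, which were found for 66 members, the median was 48.0 kb against 83.7 kb for all protein-coding genes with such a start.

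**Figure D2:**
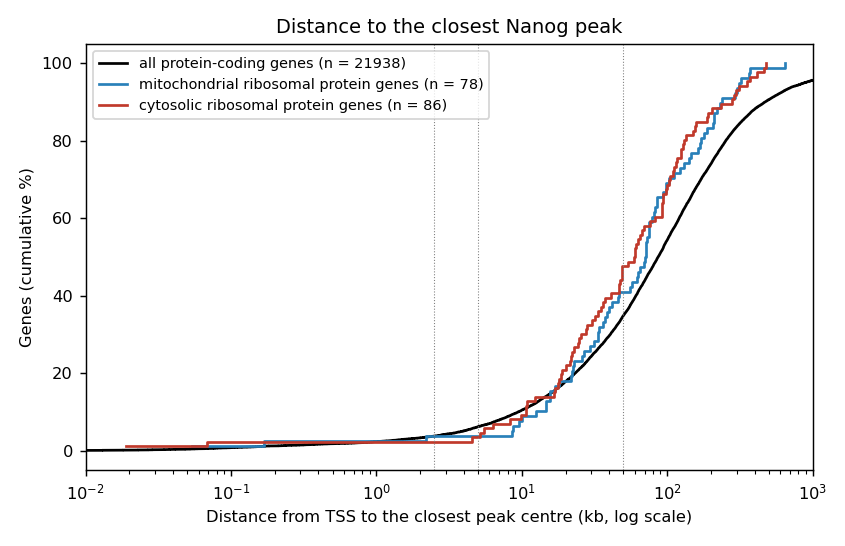
Cumulative share of genes (vertical axis, percent) by the distance from the TSS to the closest peak centre (horizontal axis, kb, log scale), for 86 cytosolic ribosomal protein genes, 78 mitochondrial ribosomal protein genes and all 21938 protein-coding genes; dotted lines mark 2.5, 5 and 50 kb. The cytosolic ribosomal curve is below that of all genes at 5 kb (3.49% against 6.2%) and above it at 50 kb (47.7% against 34.9%).

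Counted per gene and kb of distance, peaks were as dense in the first kb around member starts as around other starts, with 2 peaks or 0.0233 per gene and kb (Poisson interval 0.00282 to 0.0840) against 0.0240 for all protein-coding genes. Between 1 and 2.5 kb no member had a peak, and between 2.5 and 5 kb only that of Rps19 was found. The count of 0 allows a density of up to 0.0286 per gene and kb, above the 0.0105 of all genes. From 10 to 25 kb the density at members was 0.0155 (interval 0.00947 to 0.0239) against 0.00986, and from 50 to 100 kb it was 0.0105 against 0.00957.

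**Figure D3:**
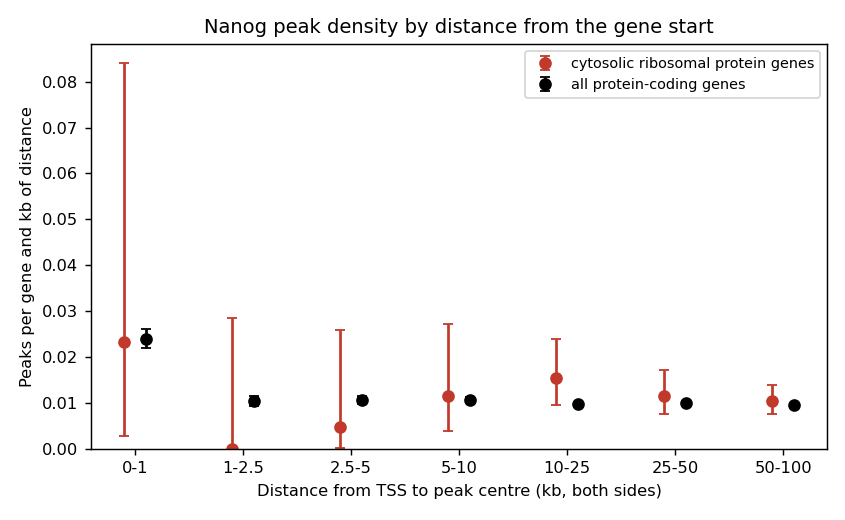
Number of Nanog peaks per gene and kb of distance (vertical axis) in 7 classes of distance between TSS and peak centre (horizontal axis, kb, both sides), with exact 95% Poisson intervals, for the 86 cytosolic ribosomal protein genes and all protein-coding genes. In all 7 classes the value for all genes lies inside the interval of the ribosomal protein genes, and from 1 to 2.5 kb, where members have no peak, it is below their upper bound of 0.0286.

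By role, the 2 members with a peak on the TSS were 1 small-subunit and 1 stalk gene. The stalk is part of the large subunit but was counted apart. None of the other large-subunit genes had a peak within 5 kb (0 of 43, upper bound of the interval 8.22%), against 6.2% of all protein-coding genes. Within 50 kb, 34.9% of all protein-coding genes had a peak. Among members it was 17 of the 31 small-subunit genes (54.8%, interval 36.0 to 72.7) and 2 of the 3 stalk genes. Of the 43 large-subunit genes outside the stalk it was 15 (34.9%, interval 21 to 50.9). The intervals of the small and large subunit overlap, and their difference was not tested. Of the 9 paralogues and other symbols, 7 had a peak within 50 kb (77.8%, interval 40.0 to 97.2), against 34.9% of all protein-coding genes. The 7 were Rpl7l1, Rpl10l, Rpl22l1, Rpl39l, Rps27l, Rps27rt and Rps19bp1.

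Most members with a peak in the 50 kb window had just 1. Of the 41, 31 had 1 peak, 9 had 2 and Rpl7l1 had 4. Rpl7l1 (ENSMUSG00000063888.7, chromosome 17, 46773907 to 46782672, minus strand), a paralogue of Rpl7, had all of its peaks upstream, at 5.47, 10.6, 28.2 and 29.9 kb, in introns of the gene Gm26904. Those at 28.2 and 29.9 kb were also in introns of Bicral. Rpl7l1 had the nearest protein-coding TSS to all 4. The peak at 10.6 kb held Nanog core, Klf and Esrrb letters, the one at 28.2 kb Sox letters and the one at 29.9 kb the Nanog core. The 9 members with 2 peaks were tied behind it: Rps21, Rps10, Rps12, Rpsa, Rplp2, Rpl5, Rpl7a, Rpl11 and Rpl23. Of these, Rpsa is also known as a laminin receptor, and Rpl5 and Rpl11 also act on the p53 pathway outside the ribosome. The second peak of Rps21 was 632 bp wide and 29.6 kb upstream, where the TSS of Lama5 was nearer.

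The 53 pairs of a member and a peak rested on 52 distinct peaks. The closest peak lay upstream in 23 members and downstream in 18. Of the 52 peaks, 26 were centred in introns, 21 between genes, 4 in untranslated regions and 1 in another exon, and 10 were centred in soft-masked repeats. None was centred in a coding exon. Sides, annotations and repeats were not counted over all genes or peaks, so these counts describe the peaks near members only. Their median width was 305 bp, against 319 bp over all peaks, and 20 of them (38.5%, interval 25.3 to 53.0) were at or above the median width.

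**Figure D4:**
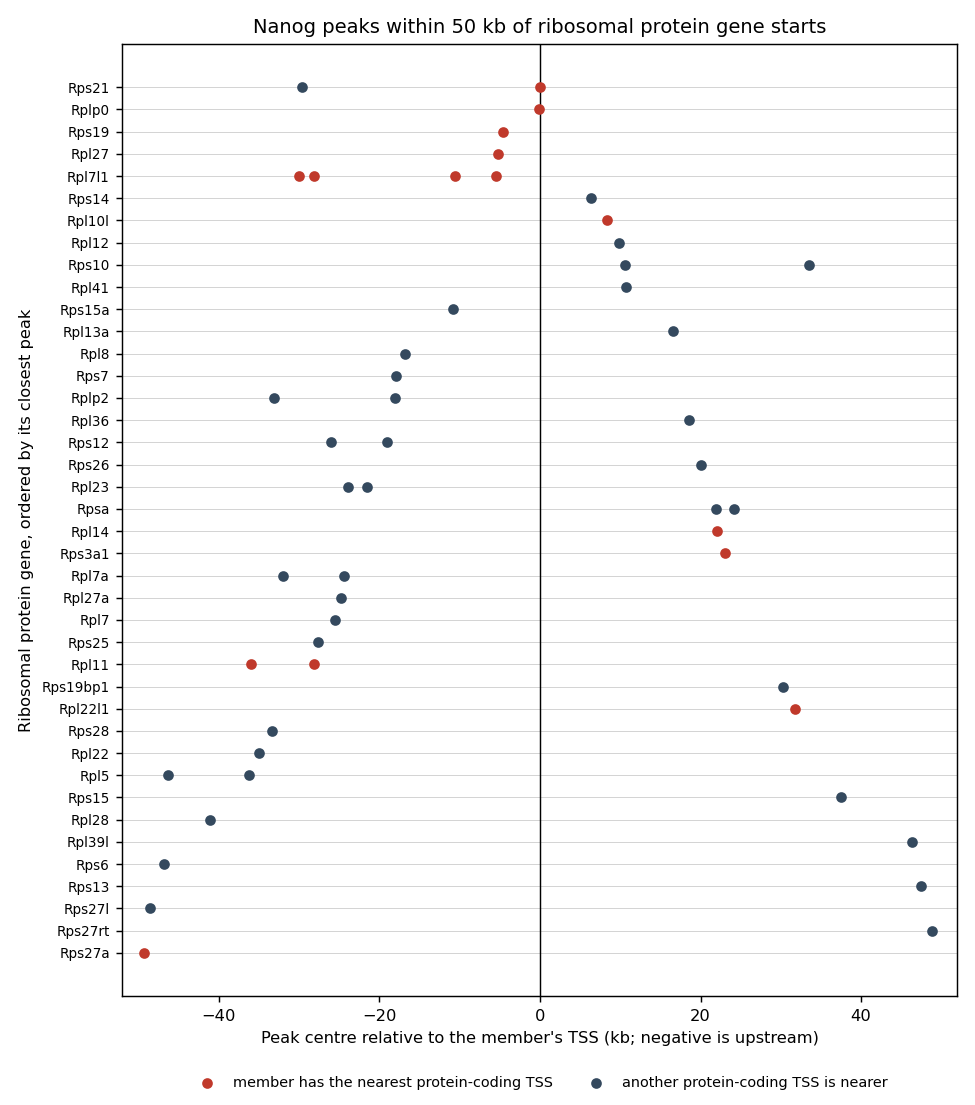
Position of each Nanog peak centre relative to the TSS (horizontal axis, kb, negative is upstream) for 40 of the 41 members with a peak within 50 kb (rows, ordered by the closest peak). Red points are peaks whose nearest protein-coding TSS is the member's and dark points those with another protein-coding TSS nearer; 11 of the 40 rows have a red point, among them those of Rps21 and Rplp0 at the zero line.

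The peaks in this window belonged, by proximity, mostly to other genes. A member had the nearest protein-coding TSS for 15 of the 52 peaks, and 11 of the 41 members (26.8%, interval 14.2 to 42.9) were nearest to at least 1 of their peaks. Among all 7650 protein-coding genes with a peak within 50 kb, 3984 (52.1%) were nearest to at least 1. The 11 members were Rps21, Rplp0, Rps19, Rpl27, Rpl7l1, Rpl10l, Rpl14, Rps3a1, Rpl11, Rpl22l1 and Rps27a. Rpl10l, a retrogene of Rpl10 expressed in the testis, had its peak 8.35 kb downstream, and Rps27a, which is made as a fusion with ubiquitin, had its peak 49.3 kb upstream.

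Several of the other peaks lay directly on the start of a neighbour. In 7 of the 41 members (17.1%, interval 7.15 to 32.1) the closest peak was within 1 kb of the TSS of another protein-coding gene, against 8.41% of all genes with a peak in the window. The peak 27.7 kb from Rps25 was 9 bp from the TSS of Hyou1, a chaperone of the endoplasmic reticulum. The one 37.5 kb from Rps15 was 44 bp from the TSS of Reep6. Those of Rps27rt, Rpsa, Rps19bp1 and Rplp2 lay 58, 67, 75 and 117 bp from the TSSs of Gpd1l, Mobp, Mief1 and Cend1. For Rpl22 the TSS of Hes3, a Notch-related repressor, was 896 bp from the peak. A second peak near Rplp2 was 168 bp from the TSS of Gatd1.

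The density of neighbouring genes differed between members and other genes and is given beside the results at 50 kb. The median number of other protein-coding TSSs within 50 kb was 3 for members (quartiles 1 and 5) and 2 for all protein-coding genes (quartiles 0 and 3). With at most 1 such neighbour, 14 of 26 members (53.8%, interval 33.4 to 73.4) had a peak within 50 kb, against 32.5% of all genes. With 2 or 3 it was 11 of 26 (42.3%) against 36.0%, with 4 to 6 it was 9 of 19 (47.4%) against 37.3%, and with 7 or more it was 7 of 15 (46.7%) against 42.5%. The members' share was above that of all genes in each class, and the background share was inside the members' interval in every class but that with at most 1 neighbour. The share of genes nearest to at least 1 of their peaks fell with neighbours in both groups, from 76.2% to 14.8% over all genes, and in members from 6 of 14 (42.9%, interval 17.7 to 71.1) to 1 of 7 (14.3%). The part of gene density in the members' values was not tested.

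The windows' limits were passed by narrow margins in a few members. Beyond 5 kb the next were Rpl27 at 5.18 kb, Rpl7l1 at 5.47 kb and Rps14 at 6.36 kb. The last, a small-subunit gene on chromosome 18, had its peak in an intron of its annotated extent, 4807 bp from the TSS of Ndst1. Just inside 50 kb were Rps27l at 48.6 kb, Rps27rt at 48.8 kb and Rps27a at 49.3 kb, and just outside were Rps23 at 53.5 kb, Rps27 at 58.8 kb and Rpl21 at 60.1 kb. Farthest from a peak were Rpl3l, a muscle paralogue of Rpl3, at 476 kb, and Rps2 at 467 kb on chromosome 17. They are neighbours, and the same peak, 86 bp from the TSS of Ccnf, was closest to both. Next was Rps20 at 414 kb. All 4 members on the X chromosome (Rps4x, Rpl36a, Rpl39 and Rpl10) lacked a peak within 50 kb, with closest peaks at 116 to 297 kb. Over all 948 protein-coding genes on X, 131 (13.8%) had one, so nothing can be read from the count of 0 in 4 members. On the autosomes 41 of 82 members (50.0%) had one, against 36.1% of autosomal protein-coding genes.

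Motif letters in the 52 peaks near members were compared with all 8735 peaks. The Sox motif was found in 8 of 52 (15.4%, interval 6.88 to 28.1) against 28.2% of all peaks, a share just above the interval's upper bound. The Nanog core occurred in 6 (11.5%, interval 4.35 to 23.4) against 18.1%, and the octamer in 2 (3.85%) against 5.72%. Klf letters were in 8 (15.4%, interval 6.88 to 28.1) against 9.0% and Esrrb letters in 4 (7.69%, interval 2.14 to 18.5) against 3.53%. Except for Sox, the share over all peaks lay inside the interval of the member peaks. Median GC content was 50.6% near members and 47.7% over all peaks.

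Since the rule used no sequence, the promoters of the members, from 250 bases before the TSS to base 50 of the gene, were described as well. The Sox letters were in 1 of 86 member promoters (1.16%) against 8.15% of all protein-coding promoters, the octamer in none against 1.57%, and the Nanog core in 5 (5.81%) against 6.68%. ETS letters were in 23 (26.7%) against 10.8%, YY1 letters in 6 (6.98%) against 2.92%, the E-box in 11 (12.8%) against 7.75%, Sp1 letters in 40 (46.5%) against 43.0% and Klf letters in 21 (24.4%) against 20.2%. Sp1 and Klf letters can overlap. TATAA was found in 26 (30.2%) against 22.9%, and the CCAAT box, added after the Rplp0 sequence was seen, in 26 (30.2%) against 39.0%. The pyrimidine motif was in 35 (40.7%) against 26.6%. A run of at least 8 pyrimidines within 10 bases of the TSS was found in 15 members (17.4%) against 7.6% of all protein-coding genes. In the RefSeq promoter table, used after the data were seen, 21 of the 78 starts of 66 members (26.9%) had such a run, against 7.55% of all starts. Every promoter window here and below, apart from those of RefSeq, was set at the 5' end of the gene's annotated extent. Whether that end is the gene's main start was not examined, and a window set elsewhere misses the letters at the main start. No interval was computed for the promoter shares, and no difference in them was tested. Letters in these windows are a description of the sequence, and absence of a match says nothing about a factor.

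Median GC content of the promoters was 55.3% in members and 55% in all protein-coding genes, while the ratio of observed to expected CpG was 0.815 against 0.525. With at least 55% GC and a ratio of at least 0.6, 41 members (47.7%) had a CpG-rich promoter, against 36.6% of all genes. All of Rps21, Rplp0 and Rps19 were among them. Against CpG-rich genes alone, the background rose to 5.33% within 2.5 kb and 8.37% within 5 kb, where the 41 CpG-rich members had 2 (4.88%) and 3 (7.32%). Within 50 kb 22 of these 41 (53.7%, interval 37.4 to 69.3) had a peak, against 42.3% of CpG-rich genes. The members were also short, with a median extent of 3330 bp against 17400 bp, and 30 of them (34.9%) contained an annotated small nucleolar RNA gene on the same strand, against 1.18% of protein-coding genes.

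Other gene groups, for protein synthesis, the proteasome and complex I, are given beside the members. Those of the proteasome and complex I were taken by symbol alone (Psm and Nduf), and whether each gene is active in ESCs was not examined. Of 78 mitochondrial ribosomal protein genes (Mrpl and Mrps), 3 (3.85%) had a peak within 2.5 kb, namely Mrps15 at 54 bp, Mrps16 at 168 bp and Mrps23 at 2185 bp, and 32 (41.0%, interval 30.0 to 52.7) had one within 50 kb. Among 30 genes of ribosome biogenesis, 2 had a peak within 2.5 kb: Nat10, an RNA acetyltransferase, at 131 bp and Ncl, which encodes nucleolin, at 213 bp. Within 50 kb 15 of the 30 (50.0%, interval 31.3 to 68.7) had one. Of 31 translation factor genes, Eif4a1 had one at 59 bp and Eif4a2, another RNA helicase, one at 4427 bp, and 11 (35.5%, interval 19.2 to 54.6) had one within 50 kb. Proteasome genes had 0 of 50 within 2.5 kb, which allows a share of up to 7.11%, and 22 within 50 kb (44.0%). Complex I genes had 0 of 37 (up to 9.49%) and 16 (43.2%). The intervals of all these groups overlap that of the members, and no difference was tested.

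Ribosomal protein genes have many processed pseudogenes elsewhere in the genome, which share sequence with their exons but not their promoters. Of 289 annotated pseudogenes named after a member with -ps and a number, 7 (2.42%, interval 0.979 to 4.93) had a peak within 2.5 kb of their 5' end and 112 (38.8%, interval 33.1 to 44.6) within 50 kb. The closest were Rpl17-ps6 at 464 bp and Rpsa-ps2 at 570 bp. Reads that match a gene and its pseudogenes equally well cannot be placed uniquely, and how many there were was not measured. How such reads were handled beyond the removal of low-quality alignments is not given in the sources used here.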

How the data were processed

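Nanog ChIP-seq was performed on 1 immunoprecipitated sample and 1 input sample of Bruce-4 ESCs. The study's methods and the submitters' processing notes name FastQC for read quality, Bowtie2 for alignment to mm10, BEDtools and SAMtools for filtering (low-quality, duplicate, mitochondrial and blacklisted reads) and MACS2 for the peak call. Neither its threshold nor its control is given in the sources used here. The authors deposited the positions of the peaks in base pairs, with no score or signal column. Of the 8860 lines, repeats of an interval and any lines outside chromosomes 1 to 19, X and Y were dropped, which left 8735.

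A gene's TSS was the 5' end of its extent in GENCODE vM21 (GRCm38, the assembly of mm10), and distances were measured to the central base of the peak. Where annotations overlapped at that base, coding exons took precedence over untranslated regions, other exons and introns. Motifs were searched on both strands without mismatch. RefSeq starts came from the promoter table of GRCm38.p6, which held 66 of the 86 members. The distance code was tested on simulated peaks. Python 3.11.15, numpy 2.4.6, scipy 1.17.1, pandas 2.3.3, pyfaidx 0.9.0.4 and matplotlib 3.10.9 were used.

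By rule, the text names members with a peak within 5 kb, the 3 nearest to each limit, those with the most peaks, the 3 farthest, members by role, and other genes nearer to the same peak. The remaining names, including the pathway genes and pseudogenes with close peaks and the members on the X chromosome, were chosen after their values were seen. Of the members and lists, 2 genes are not reported by name here. The members and all lists were chosen with earlier results of these data known. Alternatives were the peak edge, other definitions of the TSS, canonical members, wider peaks, merged peaks, autosomes, all lines and a CpG-rich background.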

Additional observations from a re-analysis of the deposited data

How the results depend on the processing

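No paired analysis was possible because the peak list comes from a single immunoprecipitation, and no replicate could be left out. Alternatives gave 36 recomputed values, of which 5 fell outside the 95% interval of the reported value and 31 did not. This count does not use the background share. Within 2.5 kb the interval runs from 0.283 to 8.15%, so a value can change much and stay inside. The canonical proteins within 50 kb (44.2%) are among the 31, although their own interval includes the background. Among the 31 is the number of peaks within 50 kb of a member, which was judged by a fold limit and stayed at 52. When narrower peaks than the median were dropped, the share of members with a peak within 50 kb fell to 19.8% and the median distance rose to 141 kb, as there are fewer peaks to find. The same restriction gave 20.1% and 172 kb for all protein-coding genes. With CpG-rich promoters only, the share of protein-coding genes with a peak was 5.33% within 2.5 kb, 8.37% within 5 kb and 42.3% within 50 kb.

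The count within 2.5 kb was 2 with distance from the peak edge, with the TSS of any transcript and after merging within 300 bp, and 1 with the wider peaks. The count within 5 kb was 4 from the peak edge, where Rpl27 entered, and 1 with the wider peaks, where Rplp0 was left. With the TSS of any transcript the background rose to 5.99%, 9.33% and 39.0% while no member count changed, and the 39.0% within 50 kb lay inside the members' interval. The RefSeq starts were chosen as an alternative after seeing the data. The list holds no read counts, so sites missed by the call cannot be counted.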
